A study of Drosophila melanogaster with 6 samples.

Results

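The mitochondrial ribosomal protein genes are nuclear genes for the protein part of the ribosome inside mitochondria, and they were followed here in the fat body of *Drosophila* larvae with and without the ETS transcription factor Delg. Members are the genes whose symbol in the array annotation begins with mRpL, for the large subunit, or mRpS, for the small subunit, and goes on with a digit. A total of 69 genes met this rule among 11982 genes with a symbol of their own on the array, 44 of the large subunit and 25 of the small subunit. Another 4 genes of this name were not measured alone: mRpS10 and mRpL53 share a probe set with another gene, and mRpL34 and mRpL37 were not analysed here. The mutant samples were *delg613*/Df(3R)ro80b and the control samples +/Df(3R)ro80b, with 3 samples of each genotype, 60 fat bodies pooled in a sample and 1 Affymetrix array per sample. *delg613* carries a stop codon in the *delg* gene, and Df(3R)ro80b is a deletion that includes *delg*, so that both genotypes carry 1 copy of the deletion and the controls have 1 intact copy of *delg*. The labels give an age of 6 days in the same words for all samples, the words speaking of mutant larvae, and the study describes the larvae as wandering and late in larval life. The comparison asks whether these genes depend on Delg for their expression.

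Mitochondrial ribosomes translate the few proteins encoded by mitochondrial DNA, nearly all of them core subunits of the respiratory chain and of ATP synthase. Their ribosomal RNA comes from the mitochondrial genome, whereas every protein of the particle is made in the cytosol from nuclear genes and imported. Some of these proteins have relatives in the bacterial ribosome and others are found only in mitochondria. The homologue of Delg in mammals, NRF-2α, is known as a regulator of nuclear genes for mitochondrial proteins.

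The probe set of *delg*, listed as Ets97D, gave 71.7, 87.1 and 91.9 in mutant replicates 1, 2 and 3 and 135, 122 and 213 in control replicates 1, 2 and 3, without overlap (-0.87 on the log2 scale, adjusted p = 0.267 from limma). A transcript with a stop codon can still be made, so that this probe set does not check the labels. Of 5 fat body markers, 3 have a probe set of their own, and their summed signal ranged from 148004 to 173757 in the mutant and from 112731 to 207848 in the control, lowest in control replicate 2. Of the 3, Fbp1 was at 1103 in control replicate 2 and at 65884 and 57207 in the other controls, whereas Lsp2 and Fbp2 stayed near them. Control replicate 2 also stood apart in the 5 salivary gland markers, all glue genes, whose summed signal was 271 there and 178442 to 274053 in the other samples. The 4 hemocyte markers summed to 1280 to 2820 in the mutant and 365 to 926 in the control, without overlap for any of them, and 2 of them, eater and Pxn, rose in the mutant. The 4 midgut markers summed to 5269 in mutant replicate 1 and to 29.4 to 116 elsewhere. That sum came from Mal-A1 (1938) and betaTry (3314). The other midgut markers did not single out that sample, with Jon65Ai highest in mutant replicate 2 (26.6) and lambdaTry in control replicate 2 (54.3). Glue genes and Fbp1 are known to be switched on late in larval life, no stage is recorded for single samples, and whether the stage of control replicate 2 differed was not tested. In bulk tissue, fewer cells of a type and less RNA per cell cannot be told apart, and the part of these differences in the values below was not tested. The deposited signals are relative units, scaled by the authors to the same trimmed mean on each array, and the median signal of an array was 55.5 to 75.5. On all 6 arrays 65 of the 69 genes lay above that median.

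None of the 69 genes passed the threshold, an adjusted p of 0.05 by limma, in the comparison of mutant with control. Of all genes 3.75% fell and 4.45% rose, and of all probe sets 3.04% fell and 3.56% rose, or 6.6% together. Before adjustment 5 members were lower at that level by limma, mRpL35, mRpL14, mRpL10, mRpS30 and mRpS18B, and 0 were higher, beside 11.7% lower and 11.3% higher of all genes. The methods' t-test before adjustment gave 0 lower and 1 higher, mRpL27, where 10.4% of all genes were lower and 10.2% higher, and after adjustment it called no member. The median log2 fold change over the 69 genes was -0.36, a fold of 0.78, and that of all genes was -0.09. A total of 59 of the 69 genes (85.5%) lay below 0, compared with 54.4% of all genes. At least 1.5-fold lower were 17 genes (24.6%, beside 27.5% of all genes) and at least 1.5-fold higher 2 (2.90%, beside 21.6%). The 3 mutant samples lay below all 3 controls in 9 genes, where 15.6% of all genes did so, and above them in 1 gene, where 14.5% did so. The direction of the median depended on 1 library: without control replicate 2, the sample that lacked the glue gene signals, it was 0.02, with 34 genes below 0 and 35 above.

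Control replicate 2 had the highest signal of the 6 samples in 65 of the 69 genes (94.2%), which it did in 23.7% of all genes. It was the highest sample for 41 of 44 genes of the large subunit and for 24 of 25 of the small subunit. Against the mean of control replicates 1 and 3 its median fold was 2.28 over the 69 genes and 0.945 over all genes, and 48 of the 69 genes (69.6%) reached at least 2-fold, beside 15.8% of all genes. The log2 ratio ranged from 0.09 to 2.56, so that no member was below the mean of the other controls. Control replicates 1 and 3 differed far less, by a median of 0.27 on the log2 scale, with control replicate 3 the higher in 55 of 69 genes.

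**Figure D1:**
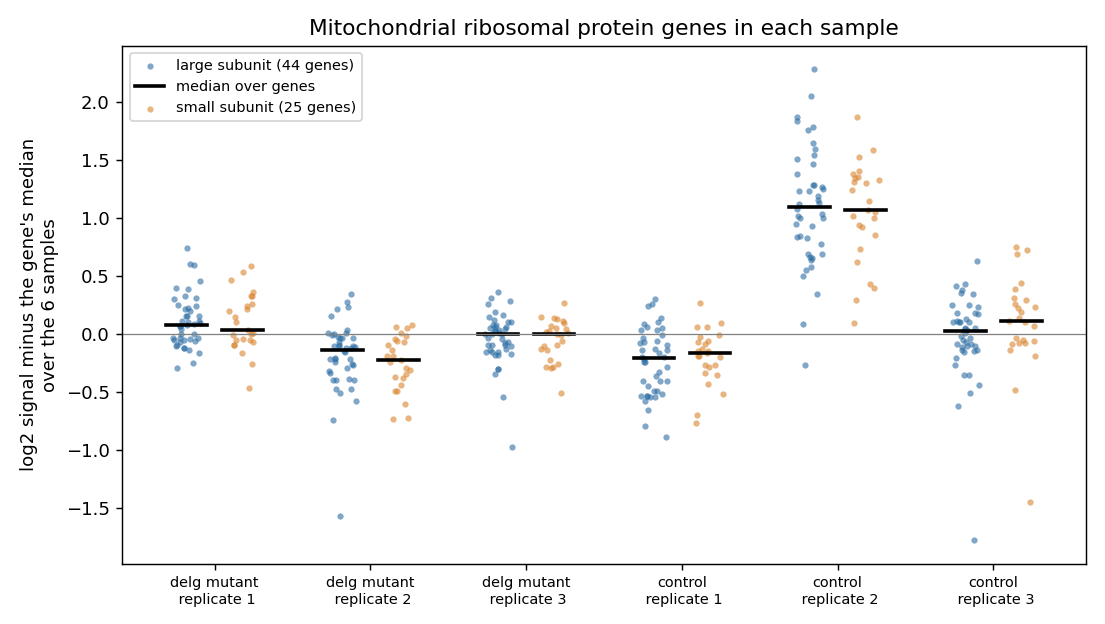
Each point is 1 gene in 1 sample, plotted as its log2 signal minus the median of that gene over the 6 samples, with blue points for the 44 large subunit genes, orange points for the 25 small subunit genes and black bars for the medians over genes. The medians of control replicate 2 lie at 1.10 and 1.07, while those of the other 5 samples lie between -0.22 and 0.11.

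The deviation of each sample from the median of the gene was alike in both subunits. For the large subunit its median over genes was 0.08, -0.14 and 0.00 in mutant replicates 1, 2 and 3 and -0.21, 1.10 and 0.02 in control replicates 1, 2 and 3. For the small subunit it was 0.03, -0.22 and 0.00 in the mutant and -0.17, 1.07 and 0.11 in the control. Apart from control replicate 2, the mutant and control samples thus overlapped. Control replicate 1 was the lowest of the 6 samples in 28 of the 69 genes and mutant replicate 2 in 23. The median over genes of the SD of log2 signals was 0.20 among the mutant samples and 0.74 among the controls, where all genes had 0.39 and 0.55.

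Which control the mutant was set against decided the sign. The mean of the mutant samples was lower than control replicate 2 in 68 of 69 genes, with a median log2 difference of -1.18. It was lower than control replicate 3 in 40 genes, with a median of -0.15, and lower than control replicate 1 in only 20 genes, with a median of 0.19. These 3 comparisons share the mutant samples. Over all genes the medians were -0.02, -0.21 and -0.08 in that order of controls.

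The large and the small subunit gave similar values, and the difference between them was not tested. The median log2 fold change was -0.37 for the 44 large subunit genes and -0.31 for the 25 small subunit genes, with 36 and 23 genes below 0 and ranges of -1.30 to 0.73 and -1.10 to 0.35. At least 1.5-fold lower were 10 genes of the large subunit (22.7%) and 7 of the small subunit (28%). The median ratio of control replicate 2 to the mean of the other controls was 1.25 and 1.15 on the log2 scale. Without control replicate 2 the medians became 0.10 and -0.07. The chromosome arms likewise had medians below 0, from -0.41 for the 17 members on 3L, all of them below 0, to -0.15 for the 11 on X. Without control replicate 2 these medians were 0.06, with 7 of 17 below 0, and 0.03. The member nearest to *delg* on 3R was mRpS22, with 119 protein-coding genes between them in the reference annotation. In mammals the relatives of mRpS30 and mRpS18A sit in the large subunit despite their names, and counting both genes there gave medians of -0.39 and -0.28. A split by origin gave like values, with -0.36 for the 44 genes with a bacterial relative and -0.36 for the 25 without. So did a split at the median brightness of the members, with -0.35 for the 34 brighter and -0.39 for the 35 dimmer genes. All 34 brighter genes were highest in control replicate 2.

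**Figure D2:**
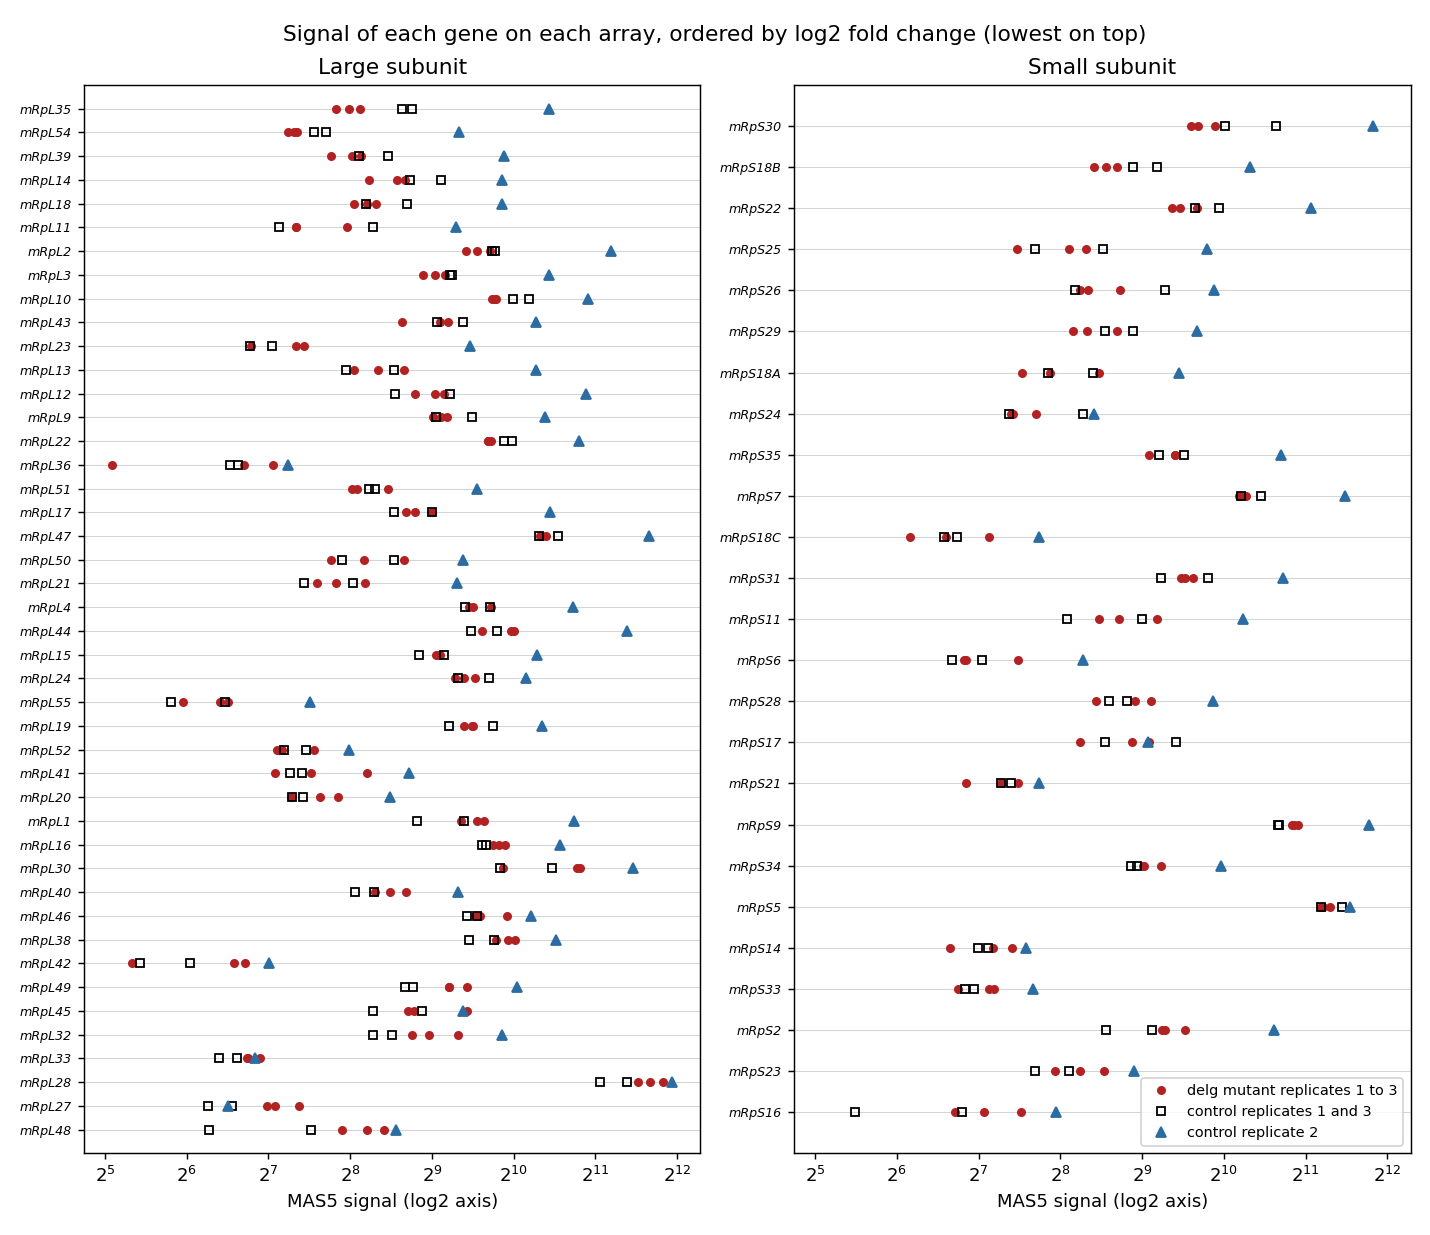
MAS5 signals on a log2 axis for all 69 genes, the large subunit on the left and the small subunit on the right, ordered by log2 fold change with the lowest on top; red circles are the 3 mutant samples, open squares control replicates 1 and 3, and blue triangles control replicate 2. The triangle is the rightmost symbol in 65 rows, and the circles and squares overlap in most rows.

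Among the large subunit genes the lowest p belonged to mRpL35, the relative of a small protein of the bacterial large subunit. The mutant gave 278, 253 and 227, and the control 396, 1379 and 432. The groups did not overlap, and control replicate 2 was 3.33-fold above the mean of the other controls. Its log2 fold change was -1.30 ± 0.45 (standard error from limma, adjusted p = 0.153). Without control replicate 2 the value of mRpL35 was -0.72 ± 0.23 (adjusted p = 0.106), still with no overlap. It was the lowest value of any member in both fits.

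Next in order of p came mRpL14, whose bacterial relative lies on the face turned to the small subunit, and mRpL10, which in bacteria anchors the stalk that binds translation factors. mRpL14 had signals of 407, 299 and 379 in the mutant and 427, 928 and 554 in the control, a log2 fold change, as are the first values in brackets from here on, of -0.75 ± 0.31 (adjusted p = 0.237 from limma). mRpL10 had 872, 851 and 885 against 1167, 1915 and 1015 (-0.60, standard error 0.25, adjusted p = 0.247). Neither gene overlapped between the genotypes, and without control replicate 2 the log2 fold changes were -0.44 and -0.32. The partner of mRpL10 in the stalk is mRpL12, known in *Drosophila* from growth driven by Cyclin D and Cdk4. For mRpL12 the mutant gave 525, 445 and 568 and the control 375, 1887 and 596. The mutant samples of mRpL12 lay between control replicates 1 and 3, and its log2 fold change of -0.56 ± 0.52 (adjusted p = 0.647 from limma) turned to 0.11 without control replicate 2, which stood 3.99-fold above the mean of the other controls.

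The next genes are relatives of proteins of the peptidyl transferase region or of the tunnel through which the new chain leaves. They do not stand for these regions as a whole, as mRpL27, treated below, was at 0.70. Of them, mRpL2 and mRpL23 were named after their values were seen. mRpL3, a relative of a bacterial protein close to the peptidyl transferase centre, had 476, 572 and 524 in the mutant and 609, 1378 and 599 in the control (-0.61, adjusted p = 0.387 from limma), without overlap. mRpL2, of the same core, also did not overlap, with 751, 835 and 681 against 872, 2330 and 849 (-0.67, adjusted p = 0.399). For mRpL22, whose bacterial relative lines the tunnel, the mutant signals were 822, 822 and 842 and the control signals 945, 1782 and 1011 (-0.53, adjusted p = 0.329), again with no overlap. In mRpL23, of the tunnel exit in bacteria, control replicate 2 reached 709 against 110 and 132 in the other controls, 5.90-fold above their mean and the widest gap of all members. The mutant samples of mRpL23, at 173, 111 and 161, were all above control replicate 1 (-0.58, adjusted p = 0.727). mRpL13, not placed in these regions here and also named after its values were seen, had a similar arrangement. It had 1239 in control replicate 2, 247 and 372 in the other controls and 405, 264 and 324 in the mutant (-0.57, adjusted p = 0.651).

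mRpL27 was the only gene in which all mutant samples exceeded all controls. Its bacterial relative reaches towards the peptidyl transferase centre. The signals were 165, 127 and 135 in the mutant and 94.2, 90.7 and 76.8 in the control (log2 fold change 0.70 ± 0.35, adjusted p = 0.334 from limma). These signals are low, the control ones not far above the array medians of 55.5 to 75.5, and there are no detection calls. With 100 added before the log the log2 fold change was 0.37. In mRpL27 control replicate 2 did not stand out, and without it the log2 fold change was 0.73 (adjusted p = 0.317). Besides mRpL27, control replicate 2 was not the highest sample in mRpL33 and mRpL45, where it was mutant replicate 1, and in mRpS17, where it was control replicate 3. mRpL33 had 120, 108 and 107 in the mutant and 97.7, 114 and 84.1 in the control, and mRpL45 had 690, 417 and 440 against 311, 667 and 471.

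The brightest member was mRpL28, a large subunit protein with a bacterial relative. It had signals of 3251, 3639 and 2948 in the mutant and 2131, 3933 and 2682 in the control (0.21, standard error 0.24, adjusted p = 0.726 from limma). Its mutant samples lay above control replicates 1 and 3 and below control replicate 2. The same arrangement was found in mRpL48, the member with the largest positive value, with 295, 240 and 342 against 183, 376 and 77.3 (0.73, standard error 0.53, adjusted p = 0.533). mRpL54 and mRpL39, which have no bacterial relative, were among the lowest of the large subunit. mRpL54 had 159, 151 and 163 in the mutant and 188, 643 and 208 in the control, without overlap (-0.90, adjusted p = 0.358), and mRpL39 had 260, 279 and 218 against 275, 940 and 353, where mutant replicate 2 exceeded control replicate 1 (-0.84, adjusted p = 0.354).

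In the small subunit, mRpS30 and mRpS18B had the lowest values. Only in these 2 of the 25 genes did the genotypes not overlap, where 15.6% of all genes were lower and 14.5% higher without overlap. mRpS30 had signals of 823, 777 and 947 in the mutant and 1033, 3631 and 1592 in the control (log2 fold change -1.10 ± 0.41, adjusted p = 0.176 from limma). Without control replicate 1 it was the only member past the threshold (-1.51, adjusted p = 0.0490, with 3.46% of all genes falling in that fit), and without control replicate 2 its value was -0.60 (adjusted p = 0.156). mRpS18B had 415, 341 and 378 against 473, 1275 and 581 (-0.90, standard error 0.36, adjusted p = 0.215). It is 1 of a set of relatives of a bacterial small subunit protein. The other members of that set were mRpS18A, with 354, 185 and 235 in the mutant and 231, 701 and 338 in the control, and mRpS18C, with 140, 97.0 and 71.3 against 95.4, 213 and 106. Both overlapped between the genotypes, and their log2 fold changes of -0.61 and -0.39 became -0.17 and -0.03 without control replicate 2.

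Several small subunit proteins found only in mitochondria were also lower at the mean but overlapped. mRpS22 had 814, 709 and 662 in the mutant and 802, 2145 and 987 in the control (-0.72, adjusted p = 0.319 from limma). mRpS29, known in mammals as the GTP-binding protein DAP3, had 284, 416 and 320 against 474, 816 and 373 (-0.64, adjusted p = 0.339). mRpS26 had 423, 323 and 302 against 289, 941 and 620, so that its lowest sample was control replicate 1 (-0.68, adjusted p = 0.441). In mRpS25, control replicate 1 likewise lay among the mutant samples, with 319, 178 and 276 against 206, 892 and 367 (-0.70, adjusted p = 0.530).

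A further set of small subunit genes had values between -0.28 and 0.35. mRpS5, whose bacterial relative takes part in accurate decoding, was the brightest of the subunit, with 2370, 2327 and 2516 in the mutant and 2341, 2988 and 2786 in the control (-0.16, standard error 0.17, adjusted p = 0.695 from limma). mRpS17 had 469, 304 and 541 against 373, 537 and 682, and mRpS21 had 154, 115 and 179 against 169, 213 and 155. The highest log2 fold changes of the subunit were those of mRpS16 (0.35, adjusted p = 0.830), mRpS23 (0.00, adjusted p = 0.999) and mRpS2 (-0.08, adjusted p = 0.953). mRpS2 shows how 1 control set its value, with 734, 606 and 621 in the mutant, 376 and 557 in control replicates 1 and 3 and 1571 in control replicate 2. mRpS16 had 183, 104 and 134 against 111, 247 and 44.7, mRpS23 had 370, 244 and 303 against 276, 479 and 207, and mRpS6 had 179, 115 and 113 against 102, 311 and 132. All of these genes overlapped between the genotypes.

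Second probe sets exist for mRpL47 and mRpS11. For mRpL47 the brighter probe set gave 1277, 1297 and 1349 in the mutant and 1269, 3216 and 1492 in the control (-0.48), and the other 714, 616 and 709 against 682, 1926 and 829 (-0.60, adjusted p = 0.439 from limma). For mRpS11 the values were 582, 355 and 420 against 272, 1203 and 510 (-0.31), and 197, 253 and 324 against 211, 1030 and 300 (-0.67, adjusted p = 0.588). Control replicate 2 was the highest sample on all of these probe sets.

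When control replicate 2 was left out, none of the 69 genes had an adjusted p under 0.05 from limma, where 5.28% of all genes fell and 5.96% rose. At an unadjusted p under 0.05 from limma, 2 members were lower, mRpL35 and mRpS30, and 4 were higher, mRpL48 (1.28, adjusted p = 0.105), mRpL49 (0.56, adjusted p = 0.122), mRpL28 (0.45, adjusted p = 0.164) and mRpL32 (0.62, adjusted p = 0.173), beside 13.9% lower and 12.4% higher of all genes. mRpL49 had signals of 688, 592 and 593 in the mutant and 408 and 437 in control replicates 1 and 3, with 1053 in control replicate 2. In mRpL32 they were 637, 432 and 500, then 310 and 364, with 931 in control replicate 2. The mutant samples lay below both remaining controls in 9 genes (25.2% of all genes did) and above both in 12 (19.5% of all genes did). At least 1.5-fold lower were 2 members (2.90%, beside 30.2% of all genes) and at least 1.5-fold higher 4 (5.80%, beside 20.8%). When each array was also centred on its median, 52 of the 69 genes lay above 0, beside 53.9% of all genes. Before adjustment 9 members were then higher and 0 lower by limma, beside 16.6% higher and 9.47% lower of all genes, and none passed the threshold.

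**Figure D3:**
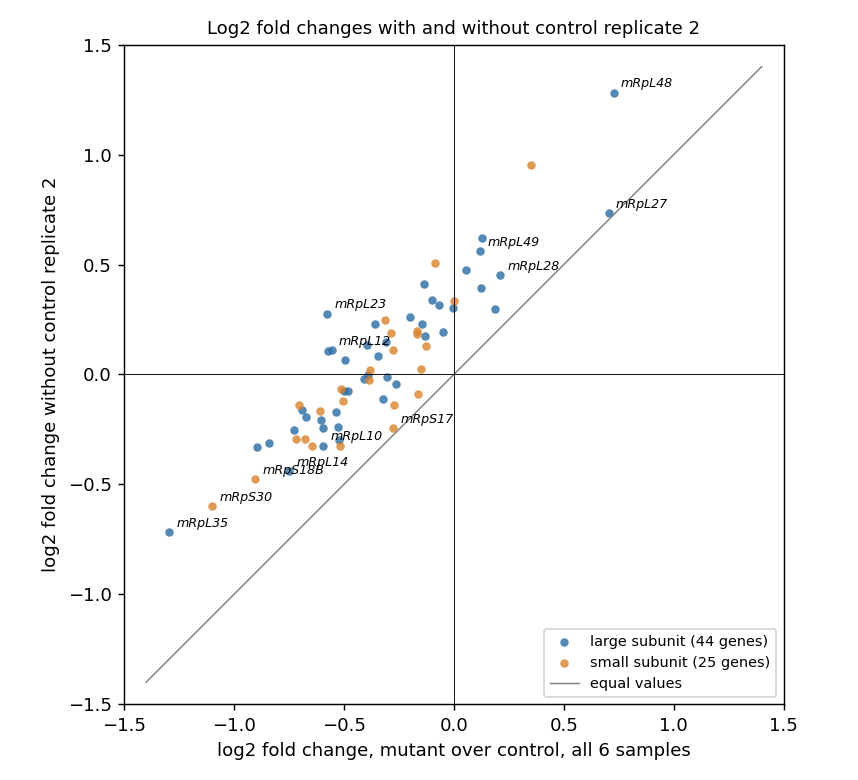
Log2 fold change of each of the 69 genes over all 6 samples (horizontal) and without control replicate 2 (vertical), blue for the large and orange for the small subunit, with a grey line of equal values. All 69 points lie above the line, as control replicate 2 exceeded the mean of the other controls in every member, and the median moves from -0.36 to 0.02.

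Ribosomal proteins of mitochondria also exist under other names. tko, for the small subunit protein S12 of the decoding centre, had 578, 557 and 589 in the mutant and 283, 959 and 499 in the control (0.16, adjusted p = 0.888 from limma). bonsai, for the small subunit protein S15, had 1388, 1441 and 1349 against 1146, 3865 and 1779 (-0.52, adjusted p = 0.552). In both genes control replicate 2 was the highest sample and control replicate 1 the lowest, and without control replicate 2 the log2 fold changes were 0.61 and -0.04. Of 12 mitochondrial translation factors 10 were measured, with a median of -0.48 and 9 below 0, and none passed the threshold. Without control replicate 2 their median was -0.25, still with 9 below 0, and that sample was at least 2-fold above the other controls in 2 of the 10. Those with the smallest p were the initiation factor genes mIF3, with 165, 224 and 197 against 266, 366 and 345 (-0.74, adjusted p = 0.174), and mIF2, with 112, 159 and 206 against 203, 383 and 270 (-0.84, adjusted p = 0.251).

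Mitochondrial aminoacyl-tRNA synthetases load the tRNAs used by these ribosomes. Of 15 such genes 14 were measured, with a median of -0.50 that became -0.27 without control replicate 2, and none passed the threshold. AspRS-m had 305, 372 and 426 in the mutant and 560, 791 and 778 in the control (-0.95, standard error 0.24, adjusted p = 0.0573 from limma), and ValRS-m had 153, 241 and 200 against 365, 336 and 469 (-0.99, standard error 0.28, adjusted p = 0.0848). In both, the genotypes did not overlap and control replicate 2 lay near the other controls. Both passed the threshold under some other settings. Of 12 genes for mitochondrial DNA and its transcription 10 were measured, with a median of -0.24 that became -0.02 without control replicate 2, none past the threshold. mtTFB2, a transcription factor of mitochondria, had 106, 194 and 122 against 257, 294 and 221 (-0.91, adjusted p = 0.170), and PolrMT, the mitochondrial RNA polymerase, had 117, 100 and 103 against 111, 264 and 177 (-0.71, adjusted p = 0.401).

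**Figure D4:**
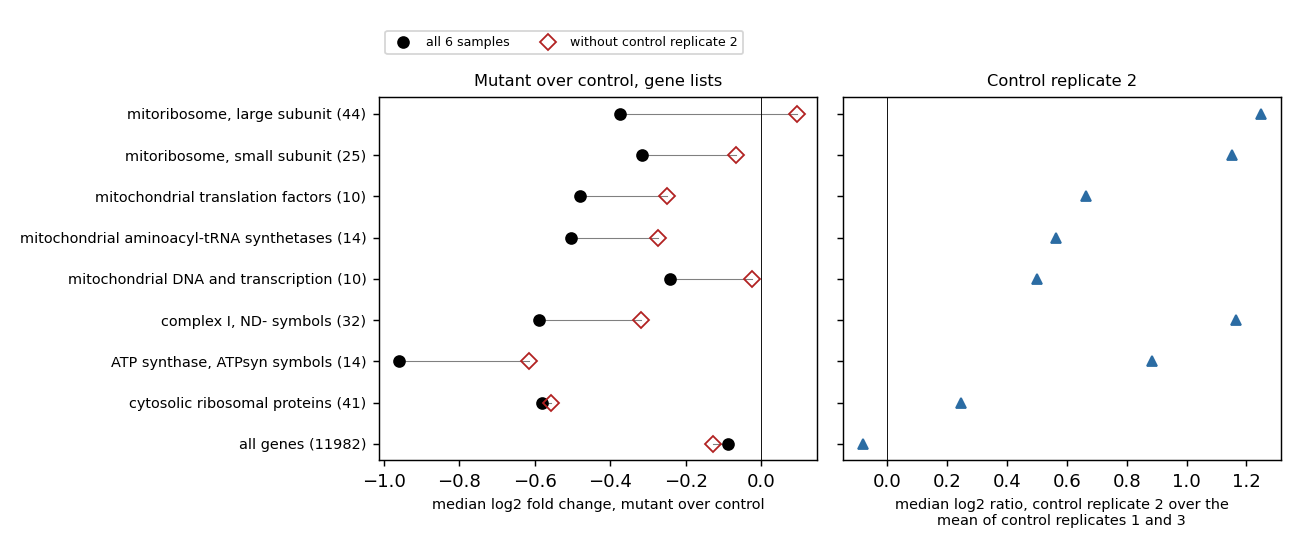
Left, median log2 fold change of mutant over control in gene lists (number of genes in brackets) over all 6 samples (black circles) and without control replicate 2 (red diamonds); right, median log2 ratio of control replicate 2 to the mean of control replicates 1 and 3 (blue triangles). The large and small subunits of the mitochondrial ribosome move from -0.37 to 0.10 and from -0.31 to -0.07, and the cytosolic ribosomal proteins from -0.58 to -0.56.

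Other groups of genes for ribosomes and mitochondria differed in how far they rested on control replicate 2. The 41 genes matched by a cytosolic ribosomal protein symbol had a median of -0.58 with all samples and of -0.56 without control replicate 2. That sample was 0.25 above the other controls in them on the log2 scale. The 32 genes of complex I of the respiratory chain had a median ratio of 1.16 in control replicate 2, close to the 1.19 of the mitochondrial ribosome, and a median log2 fold change of -0.59 that became -0.32 without that sample. For 14 ATP synthase genes the medians were -0.96 and -0.62. With all samples, 8 cytosolic ribosomal protein genes, 1 ATP synthase gene and 0 complex I genes fell, beside 3.75% of all genes. Without control replicate 2 these counts were 10, 3 and 1, beside 5.28%. These lists hold only genes matched by symbol with a probe set of their own, so that they may be incomplete. They were not tested against each other.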

How the data were processed

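RNA of larval fat body was hybridised by the authors to Affymetrix GeneChip *Drosophila* Genome 2.0 arrays after a repeated amplification. The authors deposited MAS5 intensities on a linear scale (GCOS 1.4 in the submitters' processing notes), which have the same mean on each array after trimming 2% at each end. The table holds no detection calls, and the number of arrays limits the precision.

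Log2 values were taken with no added constant, filter or further normalization. Of 18952 probe sets, 183 array controls were dropped, leaving 18769. In the array annotation 13647 of these have 1 symbol, 402 several and 4720 none. Each gene was represented by the brightest of its probe sets, by mean log2 intensity. All 69 members matched a RefSeq gene table (Release 6 plus ISO1 MT) by Entrez number. limma 3.58.1 in R 4.3.3 fitted genotype (lmFit, eBayes, trend), and p-values were adjusted by Benjamini-Hochberg over the 18769 probe sets. The study calls the samples of a genotype biological replicates, without saying whether they came from separate crosses. The limma p-values set the difference between genotypes against the spread among these samples, moderated over all probe sets. In simulated data (18769 probe sets) each probe set kept its mean, and both genotypes were given 1 pooled spread. The fit recovered 19.6% of 250 probe sets lowered by a log2 of 2 and 0.4% of 250 lowered by 1. In the real data the spreads differed, with a median SD over members of 0.20 in mutant and 0.74 in control samples. The simulation also changed few probe sets, so that these shares do not give the sensitivity for the members.

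The members, lists and tests were chosen with earlier results of these data known. Genes named are, per subunit, the 5 with the smallest p, the 3 lowest, the 3 highest and the brightest, together with mRpL12, the members that a table of the study names and 2 genes per companion list. mRpL2, mRpL13, mRpL23, mRpL32, mRpL33, mRpL45, mRpL47, mRpL49, mRpS11, mRpS18A and mRpS18C were named after their values were seen. At that stage the splits by bacterial relative, place in mammals, brightness and chromosome were also chosen, and the lists of complex I, ATP synthase and cytosolic ribosomal proteins were made from symbols. Markers of muscle, testis and imaginal discs were measured too (1 of 4, 4 of 4 and 3 of 4 genes), and none passed the threshold. Without overlap between genotypes, 2 of the 4 testis markers, can and aly, were lower in the mutant, and 1 disc marker, ap, was higher. Of all genes 15.6% were lower and 14.5% higher without overlap. Samples of the 2 genotypes share numbers in their titles. The deviations of same-numbered samples correlated at -0.04, -0.07 and -0.01, and those of differently numbered samples at -0.04 to 0.07. With 3 samples of each genotype these correlations do not decide whether the numbers mark pairs. The main fit did not take the numbers as pairs, and a block for replicate number was among the alternatives. Alternatives were centring, quantile normalization, adding 100 before the log, the brighter part of the array, a block for replicate number, averaging a gene's probe sets, limma without trend, array weights, the methods' t-test (two-sided, equal variances) and leaving out each sample.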

Additional observations from a re-analysis of the deposited data

How the results depend on the processing

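Among the alternatives run, only leaving out 1 sample changed the count of 0 members called, giving 0 to 1 (mRpS30, without control replicate 1). The number at least 1.5-fold lower was 6 after centring each array, 9 with 100 added, 7 with array weights and 2 to 38 without 1 sample. Without 1 sample the medians ranged from -0.66 to 0.02 over all members, -0.66 to 0.10 in the large and -0.61 to -0.07 in the small subunit, each lowest without control replicate 1 and highest without control replicate 2. Centring together with leaving out control replicate 2, chosen after seeing the data, gave 0 members at least 1.5-fold lower, 52 of 69 above 0 and medians of 0.22 and, for the large and the small subunit, 0.30 and 0.14. Centring moved the median of all probe sets from -0.09 to 0.05 and the share of rises among the calls from 54.0 to 70.4%, and the median of the members was then still below 0.

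Over the whole array 1239 probe sets were called, compared with 687 with the replicate block, 229 without trend, 2138 with array weights, 323 by the methods' t-test and 378 to 1668 without 1 sample. The replicate block changed no call of a member. Of the 69 members 59 lay below 0, compared with 51 after centring and 45 with array weights. Of the genes named, the sign turned for mRpS2 after centring (0.059) and with array weights (0.18), and for mRpS23 after quantile normalization (-0.0045) and with 100 added (-0.0115). Without 1 sample the log2 fold change ranged from -0.52 to 0.51 in mRpS2, -0.27 to 0.34 in mRpS23, -0.28 to 0.95 in mRpS16, -1.06 to 0.11 in mRpL12, -0.61 to 0.19 in mRpS6, -1.07 to 0.28 in mRpL23, -1.06 to 0.11 in mRpL13, -0.82 to 0.25 in mRpS11, -0.16 to 0.39 in mRpL45, -0.12 to 0.56 in mRpL49, -0.17 to 0.62 in mRpL32 and -0.27 to 0.61 in tko. AspRS-m passed the threshold with quantile normalization (adjusted p = 0.0356 from limma), in the brighter part (0.0374), with array weights (0.0256) and without control replicate 1 (0.0454), and ValRS-m in the brighter part (0.0458) and with array weights (0.0238). The causes were not tested.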
